A study of Mus musculus with 2 samples.

Results

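The integrated stress response genes followed here are 10 genes of the 32285 in the count tables: Atf4, Ddit3, Ppp1r15a, Trib3, Chac1, Asns, Sesn2, Ddit4, Eif2ak3 and Eif2ak4. They were taken by name for their place in the pathway, by a rule that uses no measured value but was set with earlier results of these data known, and all 10 were found by their Ensembl identifiers in the GENCODE mouse annotation. Their transcripts were counted as unique molecular identifiers (UMIs, 1 tag per captured RNA molecule) in 2 droplet single-cell libraries of mouse retina, 1 from dark-adapted control mice and 1 from mice exposed to damaging light. Spliced and ambiguous UMIs, which together stand mostly for mature RNA, were kept apart from unspliced UMIs, which stand for RNA still holding intron sequence. Levels are given as CPM, counts scaled to 1000000 of the summed spliced and ambiguous UMIs of a class of droplets in a library.

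Both libraries came from mice labelled WT, 6 to 9 weeks old, dark-adapted for 18 h, and the retinae of 3 to 5 mice were pooled in each. The light damage mice then received 5000 lx for 30 min and recovered for 6 h in dim light, and the control mice received no light damage. By the study's methods all mice carried floxed Tgfbr2 alleles without being deficient for the gene, were of both sexes on a Balb-C/CD1 background with the leucine variant of RPE65, and dead cells had been removed with magnetic beads before droplet formation. Since each condition has 1 library, differences carry no p-value. The intervals below are 95% intervals for counting error only. They treat the summed UMIs of a class as independent and leave out the spread between droplets and between mice. They therefore do not say whether the conditions differ, and are too narrow where a few droplets hold many UMIs of a gene.

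In this pathway, kinases that sense a stress phosphorylate the translation initiation factor eIF2, which slows general protein synthesis and favours translation of the Atf4 messenger. The ATF4 protein is a transcription factor that switches on genes for amino acid supply and stress defence, among them other members followed here, and a phosphatase built on the Ppp1r15a product reverses the phosphorylation. The pathway is known in photoreceptors from models of retinal degeneration. Since much of its control lies in translation and phosphorylation, transcript counts show only a part of it.

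After filters on UMIs, mitochondrial share and doublet score, 3669 control and 5593 light damage droplets remained, with a median of 2852 and 4492 UMIs. Droplets were named by marker genes, both of their cluster and of their own. Rods fell into cytoplasm-rich droplets (under 20% unspliced UMIs, 2351 control and 1762 light damage) and nucleus-rich droplets (30% or more, 693 and 3037). Cone-like droplets numbered 168 and 94, retinal pigment epithelium (RPE)-like droplets 158 and 292, and Mueller-like droplets, named for the main glia of the retina, 49 and 55. The labels were checked against their marker lists. Rod markers summed to between 51815 and 120911 CPM in the rod classes. All 10 were detected there, but also in every other class, so their detection does not set the rods apart. The 8 cone markers summed to 10422 and 12873 CPM in the cone-like class, which also held 95433 and 50330 CPM of rod markers. The control value of these rod markers was above the 66996 CPM of the control nucleus-rich rods. The 10 Mueller markers summed to 20088 CPM in the control and 7301 CPM in the light damage Mueller-like droplets, which also held 26100 and 15885 CPM of rod markers and 1302 and 1418 CPM of endothelial markers. RPE markers summed to 92826 and 74748 CPM in the RPE-like droplets, where Mueller markers stood at 4912 and 5265 CPM and astrocyte markers at 623 and 1911 CPM. Of the 10 Mueller markers, 5 were at 0 in the control RPE-like droplets and 4 in those after light damage. Only some genes of that list thus carry its sum there. Whether such sums stand for RNA of other cells was not tested, nor was the part of any such RNA in the members' values. Only 7 barcodes were shared between the kept droplets of both libraries. RNA free in the suspension, estimated from markers of other cells, made up 2.71% and 0.863% of the nucleus-rich rods, 0.797% and 0.554% of the cytoplasm-rich rods, 1.09% and 0.430% of the cone-like, 8.84% and 5.33% of the RPE-like and 25.5% and 20.1% of the Mueller-like UMIs.

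The members lie at scattered places of the genome, and the bases before their start sites show which of them hold known stress elements there. The C/EBP-ATF response element, whose core TGATGNAA is bound by ATF4 with a partner, was searched on both strands of the 300 bases around each RefSeq start in the build GRCm38.p6, and so was the cyclic AMP response element TGACGTCA, bound by ATF and CREB factors. No member window held both. The first occurred in 3.97% and the second in 1.79% of 32851 promoters. Of the members, Chac1, Trib3 and Asns held the first, in Trib3 at base 15 after the start, and Ppp1r15a held the second. Stretches are shown for 3 of these and for Atf4, the member with the most UMIs in rods. They are printed 5′ to 3′ along the gene, with the matching letters in capitals, which for Chac1 are the reverse complement of the string. Those of Ppp1r15a and Atf4 are the 100 bases before the start, that of Chac1 spans bases -213 to -114 and that of Asns bases -34 to -5.
Ppp1r15a, chr7:45526269-45526368, minus strand: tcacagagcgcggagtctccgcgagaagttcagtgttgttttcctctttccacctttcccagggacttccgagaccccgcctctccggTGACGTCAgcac
Asns, chr6:7693214-7693243, minus strand: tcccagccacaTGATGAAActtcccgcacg
Chac1, chr2:119351029-119351128, plus strand: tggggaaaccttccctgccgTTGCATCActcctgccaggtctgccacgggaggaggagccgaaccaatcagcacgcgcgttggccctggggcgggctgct
Atf4, chr15:80255084-80255183, plus strand: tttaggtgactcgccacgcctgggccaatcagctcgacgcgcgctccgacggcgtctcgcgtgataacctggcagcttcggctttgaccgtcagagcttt
Neither string occurred in the 300-base windows of Atf4 and Ddit4, and no binding was measured here.

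In the nucleus-rich rods, 3 of the 8 members with at least 30 UMIs in both libraries together were at least 2-fold higher in the light damage library and none was 2-fold lower. Of all 11199 genes tested this way in that class, 8.75% were 2-fold higher and 4.07% 2-fold lower. The members' median log2 ratio, light damage over control, was 0.82, and that of all tested genes was 0.04. In the cytoplasm-rich rods 1 of 9 tested members was 2-fold higher and none 2-fold lower, where 4.19% and 1.03% of 9601 genes were. Their median log2 ratio was 0.18, close to the 0.17 of all tested genes.

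Atf4 (ENSMUSG00000042406, chr15:80255184-80257541, GRCm38), the effector transcription factor, was the member with the most UMIs in every rod group. Its level in the nucleus-rich rods was 373 CPM in the control library and 786 CPM in the light damage library, from 548 and 8052 UMIs. The Poisson intervals of both levels, 342 to 405 and 769 to 804 CPM, stood far apart, and the log2 ratio was 1.08 (0.95 to 1.20). In the cytoplasm-rich rods Atf4 was at 310 and 287 CPM, with a slightly negative log2 ratio of -0.11 (-0.20 to -0.02). Both rod classes thus differed in log2 ratio by 1.19 (1.04 to 1.34). Cone-like droplets had 275 and 685 CPM and a log2 ratio of 1.32 (1.08 to 1.56), from which the ratio of the nucleus-rich rods differed by -0.24 (-0.51 to 0.03). Mueller-like droplets had 250 and 459 CPM, with a log2 ratio of 0.88 (0.34 to 1.45). The lowest levels were those of the RPE-like droplets, at 92.5 and 134 CPM, with a log2 ratio of 0.53 (0.14 to 0.95). In order of level, the light damage nucleus-rich rods came first, then the light damage cone-like droplets, without overlap of their intervals. The light damage Mueller-like droplets and the control nucleus-rich rods, next in order, overlapped with each other, and so did each neighbouring pair from the control cytoplasm-rich rods down to the control Mueller-like droplets. Both RPE-like groups lay below all others, with 119.6 to 149.6 CPM above 71.3 to 118 CPM. The free RNA moved in the same direction, with 376 and 748 CPM of Atf4, and after its expected share was subtracted the log2 ratio in the nucleus-rich rods was 1.08.

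**Figure D1:**
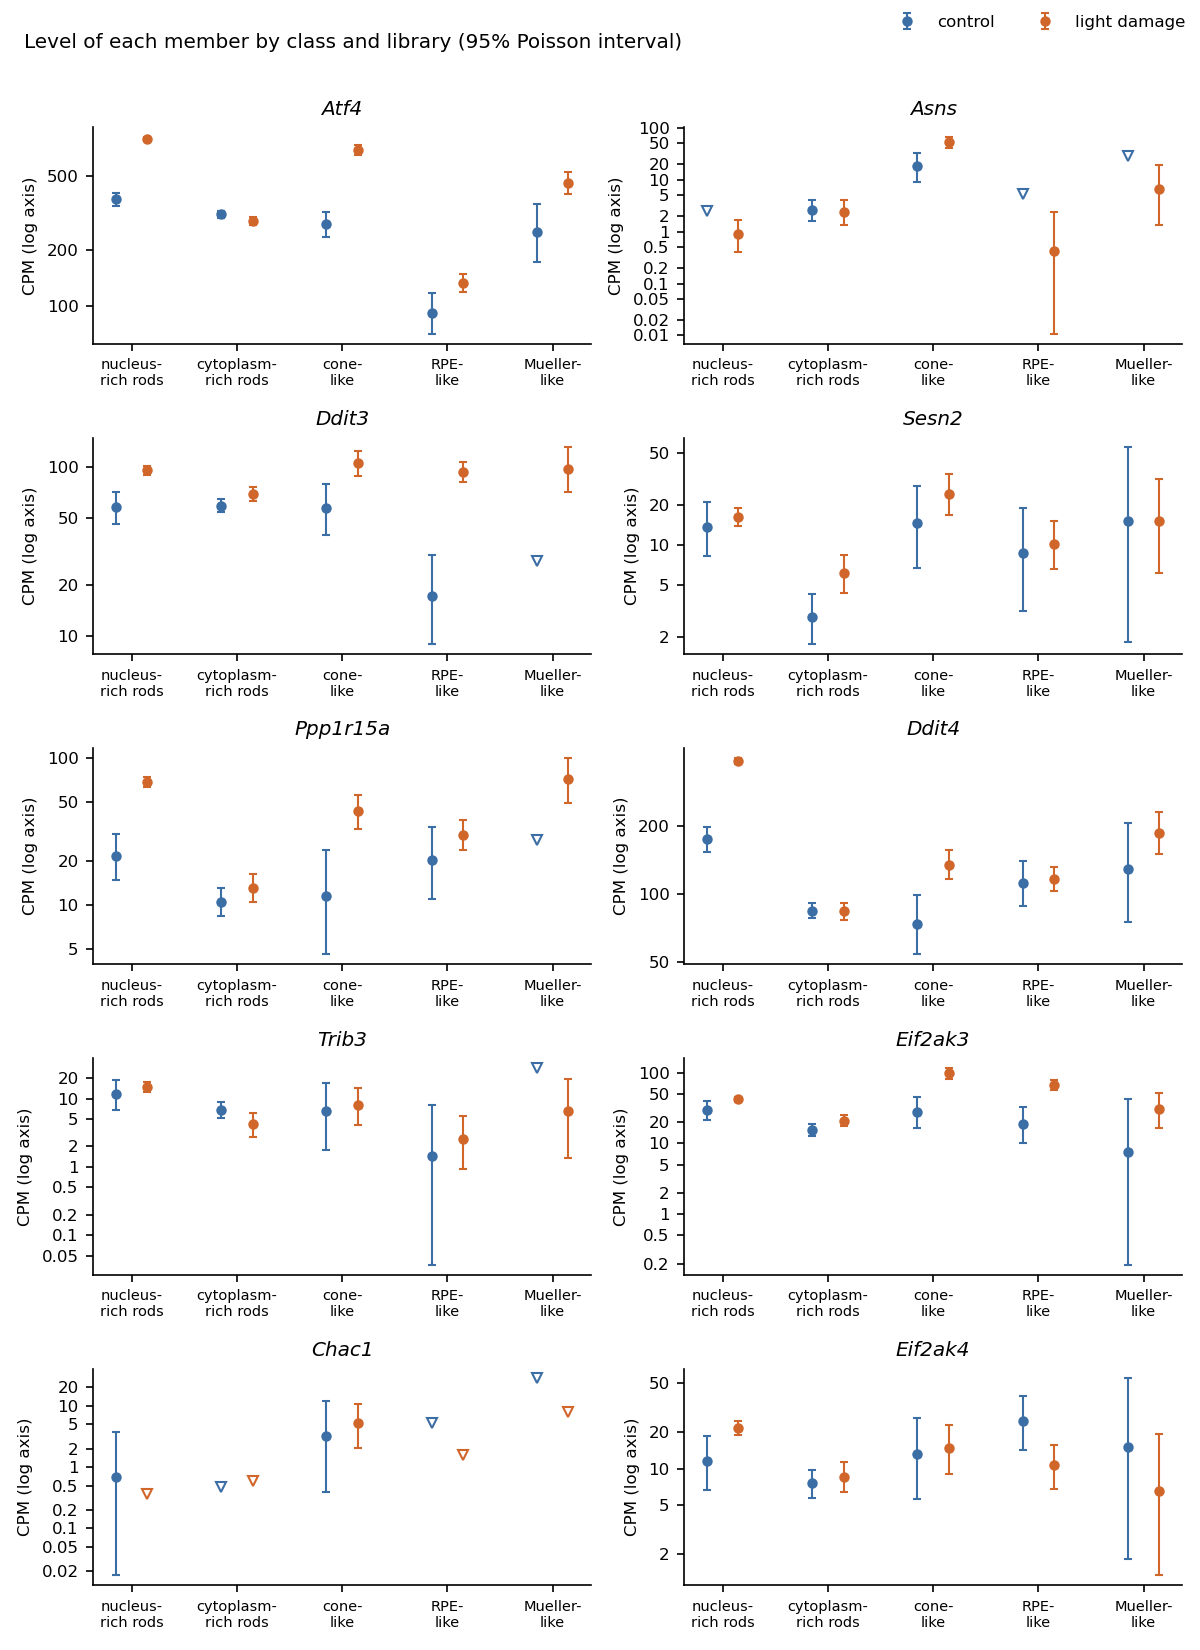
Level of each member in CPM of spliced and ambiguous UMIs (log axis) in the 5 classes, control in blue and light damage in orange. Points are summed levels, bars 95% Poisson intervals, and open triangles the upper limit of a group with 0 UMIs; Atf4 and Ddit4 stand apart between the libraries in nucleus-rich but not in cytoplasm-rich rods.

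Ppp1r15a (ENSMUSG00000040435, chr7:45522916-45526268) encodes GADD34, the stress-induced subunit that brings a phosphatase to eIF2. In the nucleus-rich rods it stood at 21.8 CPM in control and 68.9 CPM after light damage, from 32 and 706 UMIs, and the log2 ratio was 1.66 (1.15 to 2.22). In the cytoplasm-rich rods the levels were 10.6 and 13.1 CPM, with a log2 ratio of 0.32 (-0.15 to 0.78) that does not exclude equality. The classes differed by 1.35 (0.67 to 2.02). Cone-like droplets had 11.5 and 43.5 CPM, a log2 ratio of 1.92 (0.79 to 3.30) that rests on 7 control UMIs. It became -0.68 when droplets were named by their cluster alone, which adds a control droplet with 39 Ppp1r15a UMIs. RPE-like droplets had 20.2 and 30.2 CPM, with a log2 ratio of 0.58 (-0.26 to 1.52). No UMI was found in the 49 control Mueller-like droplets and 33 in the 55 of the light damage library, at least 3.16-fold higher when the control is set at 3 UMIs. The 3′ end of Ppp1r15a overlaps that of Tulp2, a gene on the other strand, and by the study's methods reads on the reverse strand of a transcript were left out of the counting.

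Ddit3 (ENSMUSG00000025408, chr10:127290774-127296288) encodes CHOP, a transcription factor of prolonged stress. In RPE-like droplets it was at 17.3 CPM in control and 94.0 CPM after light damage, from 12 and 221 UMIs, a log2 ratio of 2.44 (1.60 to 3.41). In the nucleus-rich rods it was at 57.8 and 96.1 CPM, a log2 ratio of 0.73 (0.41 to 1.07), which is 1.70 below that of the RPE-like droplets, with an interval of the difference from -2.60 to -0.81. In the cytoplasm-rich rods the levels of 59.3 and 69.8 CPM gave a log2 ratio of 0.24 (0.04 to 0.43), little above the 0.17 of the median gene of that class. Cone-like droplets had 57.3 and 105 CPM, a log2 ratio of 0.88 (0.34 to 1.46). In Mueller-like droplets 0 control UMIs stood against 45, at least 4.31-fold higher against a floor of 3 UMIs. The 3′ end of Ddit3 overlaps Mars and its 5′ end Gm4189, both on the other strand, and an overlapping second Ddit3 identifier had 0 UMIs and was summed with the first.

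Ddit4 (ENSMUSG00000020108, chr10:59949669-59951834) encodes REDD1, which restrains the growth kinase mTORC1 and is also switched on by low oxygen and by glucocorticoids. In the nucleus-rich rods its level was 175 CPM in control and 390 CPM after light damage, from 257 and 3990 UMIs, with a log2 ratio of 1.16 (0.97 to 1.34). The cytoplasm-rich rods had 84.0 and 83.6 CPM, a log2 ratio of -0.01 (-0.18 to 0.16), so any difference in that class is small by counting. The classes differed by 1.16 (0.92 to 1.41). RPE-like droplets had 111 and 117 CPM, with a log2 ratio of 0.07 (-0.30 to 0.45), and the nucleus-rich rods exceeded this ratio by 1.09 (0.68 to 1.498). Cone-like droplets had 73.7 and 135 CPM, a log2 ratio of 0.87 (0.40 to 1.38) that became -0.33 when droplets over 20000 UMIs were left out. In Mueller-like droplets the levels were 129 and 187 CPM, and the log2 ratio of 0.54 (-0.22 to 1.38) does not exclude equality. The light damage droplets of that class lay in separate clusters, however. The 29 in the cluster that held all 49 control droplets had 473 CPM of Ddit4 (367 to 599), against 129 CPM (75.0 to 206) in control, and the 26 in a cluster found after light damage alone had 57.0 CPM (33.8 to 90.0). Atf4 was at 695 CPM (566 to 846) in the former and 351 CPM (289 to 423) in the latter, against 250 CPM (172 to 351) in control. The interval of the latter overlaps with that of control.

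Sesn2, which encodes the stress-induced leucine sensor Sestrin 2, was the member that differed by 2-fold in the cytoplasm-rich rods. It had 22 UMIs there in control and 38 after light damage, at 2.83 and 6.17 CPM, and a log2 ratio of 1.12 (0.33 to 1.95). The call is not firm at this depth, since the log2 ratio stands just above 1. In the nucleus-rich rods Sesn2 was at 13.6 and 16.4 CPM, with a log2 ratio of 0.27 (-0.40 to 1.02), and within the control library it was higher there than in the cytoplasm-rich rods by 2.26 (1.31 to 3.20) on the log2 scale. Trib3, a pseudokinase that damps ATF4 activity, was at 11.6 and 14.9 CPM in the nucleus-rich rods, and the log2 ratio was 0.37 (-0.36 to 1.19). In the cytoplasm-rich rods it was at 6.83 and 4.22 CPM, a log2 ratio of -0.69 (-1.43 to 0.01).

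Asns, the asparagine synthetase and a classical ATF4 target, had its highest level in cone-like droplets. The cone-like droplets had 18.0 CPM in control and 52.3 CPM after light damage, from 11 and 71 UMIs, a log2 ratio of 1.54 (0.61 to 2.60). In that class 8 of the 11 control UMIs came from 1 droplet, and without droplets over 20000 UMIs the log2 ratio was 3.81. The nucleus-rich rods held 0 control and 9 light damage UMIs, and the cytoplasm-rich rods 20 and 15, at 2.58 and 2.43 CPM. RPE-like droplets held 0 and 1. Chac1, which encodes a glutathione-degrading enzyme, was close to absent from all named classes: the highest count was 7 UMIs, in the light damage cone-like droplets, and both cytoplasm-rich rod groups held 0. In the 6160826 UMIs of the light damage group a floor of 3 UMIs corresponds to 0.487 CPM, and the Poisson interval of a count of 0 ends at 0.599 CPM. Both carry the C/EBP-ATF string shown above, and so does Trib3.

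Of the kinases, Eif2ak3 (PERK, the sensor of the endoplasmic reticulum) was at least 2-fold higher in cone-like and RPE-like droplets. In the cone-like droplets its level was 27.8 CPM in control and 97.3 CPM after light damage, with a log2 ratio of 1.81 (1.07 to 2.63). In the RPE-like droplets it was 18.8 and 67.2 CPM, a log2 ratio of 1.84 (1.02 to 2.78). Of this light damage level, droplets of the cluster found in both libraries had 34.7 CPM and those of the cluster found after light damage alone 103 CPM. Both rod classes showed less. The nucleus-rich rods had 29.2 and 41.6 CPM, a log2 ratio of 0.51 (0.05 to 1.00), and the cytoplasm-rich rods 15.5 and 20.9 CPM, a log2 ratio of 0.44 (0.07 to 0.81). The ratio in the nucleus-rich rods was lower than in the cone-like droplets by 1.30 and than in the RPE-like droplets by 1.33, with intervals of the difference from -2.15 to -0.44 and from -2.26 to -0.40. Eif2ak4 (GCN2, the sensor of amino acid shortage) was at 11.6 and 21.7 CPM in the nucleus-rich rods, a log2 ratio of 0.91 (0.20 to 1.71), and lay in the opposite direction in RPE-like droplets, with 24.6 and 10.6 CPM and a log2 ratio of -1.21 (-2.15 to -0.23).

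Over the other classes, 4 of 7 tested members were 2-fold higher in cone-like droplets (Atf4, Ppp1r15a, Asns and Eif2ak3), beside 15.5% of 7547 genes, and none was lower, beside 3.07%. In RPE-like droplets 2 of 7 were higher (Ddit3 and Eif2ak3), beside 12.2% of 7873 genes, and 1 was lower (Eif2ak4), beside 5.64%. In Mueller-like droplets 2 of 4 were higher (Ddit3 and Ppp1r15a) and none lower, beside 24.3% and 11.9% of 4231 genes. Depth moved with the condition in these classes: the median UMIs of a droplet were 2732 and 15256 in the cone-like, 2623.5 and 6001 in the RPE-like and 2475 and 14591 in the Mueller-like class. In the light damage library, droplets over 20000 UMIs held 77.6% of the cone-like UMIs, against 25.2% in control. Without them 4 of the 5 members still tested in the cone-like class were 2-fold higher. The share of all genes 2-fold higher without these droplets is not given here, so this count has no background beside it.

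**Figure D2:**
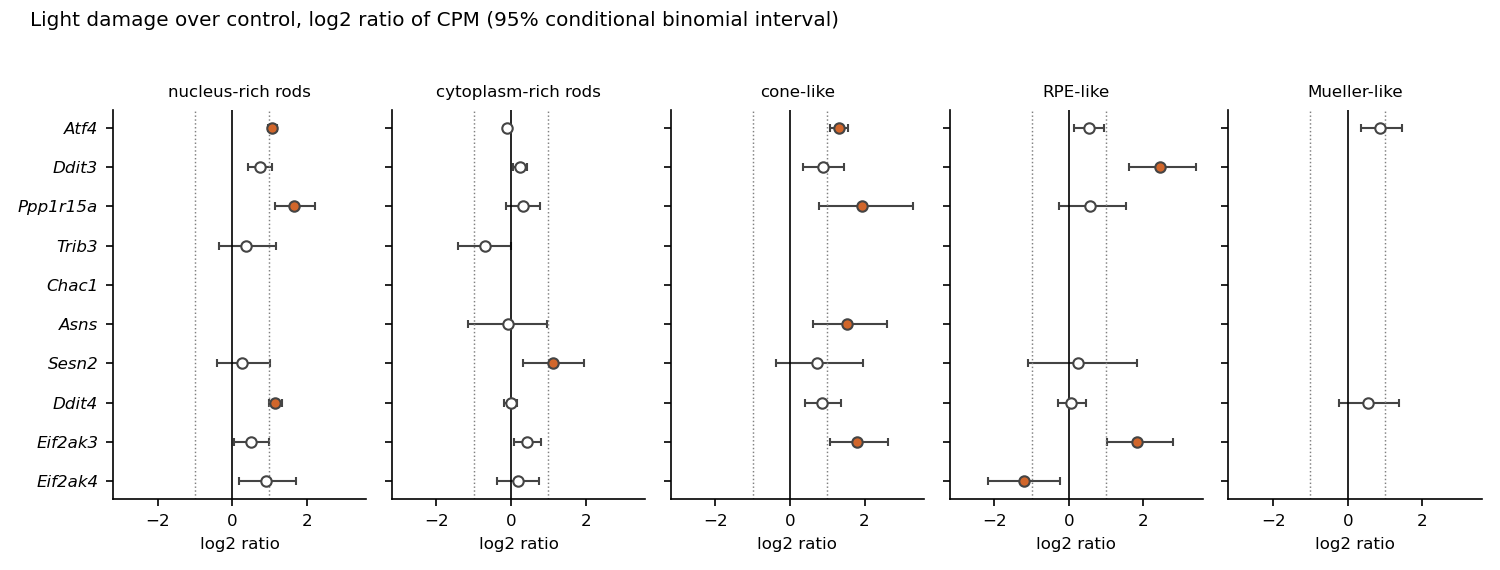
Log2 ratio of CPM, light damage over control, of each member with at least 30 UMIs, by class. Bars are 95% conditional binomial intervals, filled points lie at or beyond 2-fold (dotted lines), and members with 0 control UMIs are not drawn; Atf4 lies at 1.08 in nucleus-rich and at -0.11 in cytoplasm-rich rods.

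The unspliced share of a droplet divided the rods more finely than the classes. In droplets under 10% unspliced, 2227 control and 1734 light damage rods, Atf4 was at 309 and 287 CPM. Between 20 and 30% it was at 313 and 656 CPM, between 30 and 45% at 398 and 1104 CPM, and between 45 and 60% at 497 and 745 CPM. At 60% and above the levels came close again, at 246 and 314 CPM, a log2 ratio of 0.35 (0.08 to 0.62). The largest log2 ratio, 1.47 (1.24 to 1.71), thus belonged to the 157 control and 670 light damage droplets with 30 to 45% unspliced UMIs. Ddit4 followed the same course, with log2 ratios of 0.04 under 10%, 1.85 (1.48 to 2.25) at 30 to 45%, 0.67 at 45 to 60% and 0.14 (-0.21 to 0.51) above. Ppp1r15a was at 12.5 and 80.9 CPM at 30 to 45%, a log2 ratio of 2.69 (1.45 to 4.32) from 5 control UMIs, and its log2 ratio at 60% and above was 1.33 (0.33 to 2.504). Ddit3 had 0.65 (0.14 to 1.21) and 0.67 (0.13 to 1.27) in the bins from 30 to 60%. The bin from 10 to 20% held 28 light damage droplets and gave -0.25 (-0.65 to 0.14) for Atf4, -0.60 (-1.40 to 0.15) for Ddit4, -1.26 (-6.83 to 1.90) for Ppp1r15a and 0.99 (0.06 to 1.92) for Ddit3. The bins were chosen after these values were partly known. Depth differed too, with a median of 2049 control and 8403 light damage UMIs at 20 to 30%, 2334 and 8448 at 30 to 45% and 4271 and 4382 at 60% and above, and its part in the result was not tested. Limiting the nucleus-rich rods to 45% or more left 1 member, Ppp1r15a, above 2-fold, with log2 ratios of 0.74 for Atf4 and 0.72 for Ddit4. The share of all genes 2-fold higher at this limit is not given here.

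**Figure D3:**
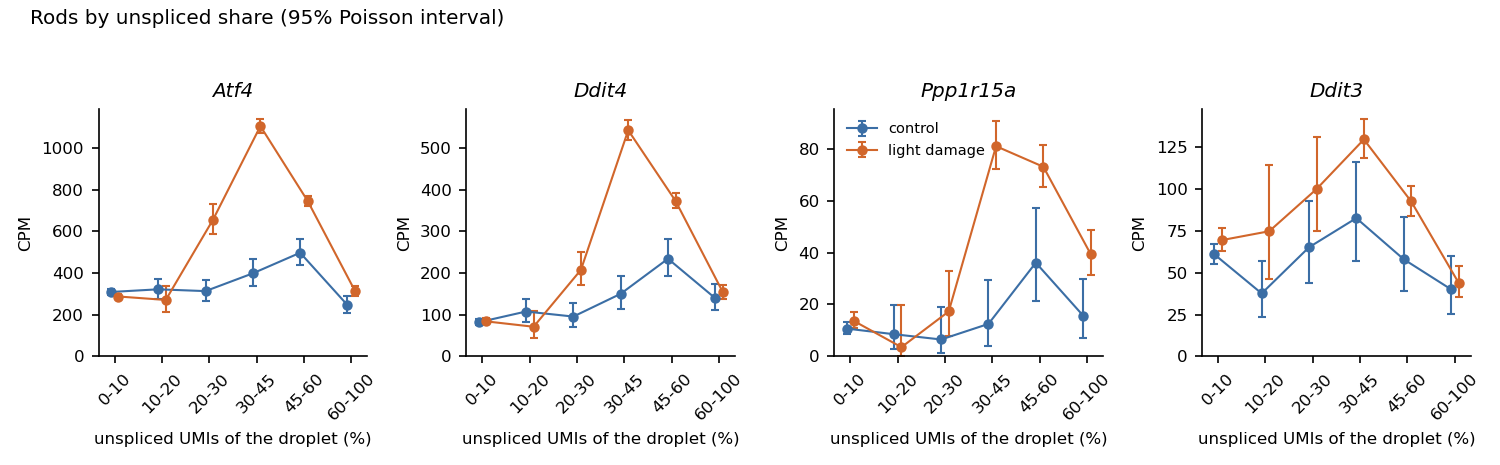
CPM of Atf4, Ddit4, Ppp1r15a and Ddit3 in rods binned by the unspliced share of the droplet (%), control in blue and light damage in orange, with 95% Poisson intervals. The curves of Atf4 and Ddit4 meet under 10% and nearly meet above 60%, and lie farthest apart at 30 to 45%.

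Within the light damage library the nucleus-rich rods exceeded the cytoplasm-rich rods in Ppp1r15a by 2.39 (2.06 to 2.74), in Ddit4 by 2.22 (2.09 to 2.36) and in Atf4 by 1.46 (1.38 to 1.53) on the log2 scale, where the median gene differed by 0.47. In the control library the same differences were 1.04 (0.41 to 1.65), 1.06 (0.84 to 1.27) and 0.27 (0.13 to 0.40), and the median gene differed by 0.63. Relative to the median gene, control Atf4 was thus lower in nucleus-rich than in cytoplasm-rich rods. The clusters of light damage nucleus-rich rods are given as a description, since the clustering used the same counts. It drew on the 2000 most variable genes, and whether these include members is not given here. Atf4 was at 443 CPM in the 1790 droplets of the largest cluster, shared with 424 control droplets at 378 CPM. It was at 1205 CPM in 1001 droplets of a cluster led by Jun and Stom, in which Ddit4 itself was among the leading genes. Another cluster, of 210 droplets and led by Egr1, had 561 CPM of Atf4, 215 of Ddit4 and 132 of Ppp1r15a, against 670 and 109 of the last 2 in the Jun-led cluster. Ddit4 in the shared cluster was at 160 CPM in control and 159 CPM after light damage. Ppp1r15a was there at 23.6 (15.5 to 34.3) and 28.7 (24.3 to 33.7) CPM and Ddit3 at 57.7 and 59.1 CPM. The Jun-led and the Egr1-led cluster each held only 4 control droplets. The RPE-like class was also divided: Ddit3 was at 17.3 and 32.3 CPM in the cluster found in both libraries and at 163 CPM in the 110 droplets of a cluster found in the light damage library alone, led by Chil1 and Serpina3n.

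The share of droplets with an Atf4 UMI was 32.0% (28.6 to 35.7, exact binomial) in control and 61.7% (59.98 to 63.5) in light damage nucleus-rich rods. Thinned to 1400 UMIs per droplet, which no kept droplet fell short of, the shares were 14.96% and 30.5%. In cytoplasm-rich rods they were 45.4% and 50.9%, or 28.7% and 29.2% after thinning. The 1400 UMIs are of all kinds. Of the UMIs of the nucleus-rich rods 58.8% and 53.1% were unspliced, against 5.49% and 5.58% in the cytoplasm-rich rods. Thinned shares are therefore not to be compared between the rod classes. For Ddit4 the thinned shares were 8.91% and 16.8% in nucleus-rich and 8.67% and 9.96% in cytoplasm-rich rods. For Ddit3 in RPE-like droplets they were 1.34% and 9.32%. No class is known to lack these transcripts, so their free RNA level stands in for a background: between control and light damage it was 57.2 and 117 CPM for Ddit3, 102 and 252 CPM for Ddit4 and 7.94 and 40.0 CPM for Ppp1r15a. After the expected free RNA was subtracted, the log2 ratios in the nucleus-rich rods were 1.14 for Ddit4 and 1.64 for Ppp1r15a.

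Unspliced UMIs of the members came mostly from the kinase genes, which are long. In the nucleus-rich rods Eif2ak3 had 185 control and 1380 light damage unspliced UMIs, a log2 ratio of 0.43 (0.21 to 0.66) relative to all unspliced UMIs, and Eif2ak4 had 116 and 684, a ratio of 0.09 (-0.19 to 0.39). The interval of its spliced and ambiguous ratio, 0.20 to 1.71, overlaps with that of the unspliced ratio. Ddit3 had 3 and 42 unspliced UMIs, a log2 ratio of 1.34 with an interval from -0.31 to 3.67, and was the 1 of 5 tested members past 2-fold. Of 12446 genes tested on unspliced UMIs in this class, 7.96% were 2-fold higher and 3.99% 2-fold lower. Atf4 and Ppp1r15a had 0 unspliced UMIs in every named class and Ddit4 at most 9, so unspliced UMIs give no reading of the 3 members called in the nucleus-rich rods.

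The other genes of the pathway were followed in 4 lists. In nucleus-rich rods, 8 of the 29 tested of 38 genes for amino acid supply and other ATF4 targets were 2-fold higher and none lower, beside 8.75% and 4.07% of all tested genes, and the list's median log2 ratio was 0.25, beside 0.04. Slc38a2, an amino acid transporter, had 74.1 and 387 CPM, and its log2 ratio was 2.38 (2.11 to 2.67). Atf3, a stress-induced transcription factor, had 17.7 and 78.7 CPM, a ratio of 2.15 (1.59 to 2.78), and Tars, a threonyl-tRNA synthetase, 34.7 and 70.2 CPM, a ratio of 1.02 (0.61 to 1.46). Lower in the light damage library were Wars and Eprs, other tRNA synthetases, at -0.83 (-1.32 to -0.31) and -0.28 (-0.49 to -0.07), and Slc7a5, an amino acid transporter, at -0.93 (-1.55 to -0.25). The list was not uniform, therefore, even among genes of the same function. In cytoplasm-rich rods 4 of 26 were 2-fold higher and none lower, beside 4.19% and 1.03% of all tested genes, with a median of 0.27, beside 0.17. Atf3 had 13.3 and 57.9 CPM there, a ratio of 2.13 (1.81 to 2.46), nearly that of the nucleus-rich rods, Slc38a2 a ratio of 1.55 (1.32 to 1.79) and Tars 1.12 (0.89 to 1.35). These genes were thus higher in a class where Atf4 and Ddit4 were not.

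The unfolded protein response list of 21 genes, chaperones and degradation factors of the endoplasmic reticulum, had 1 gene 2-fold higher in each rod class and none lower, with medians of -0.03 and 0.20. These counts lie near the shares over all tested genes (8.75% and 4.19% higher), whose medians were 0.04 and 0.17. In nucleus-rich rods Herpud1, a degradation factor, had a log2 ratio of 1.33 (0.85 to 1.86) and the co-chaperone Dnajb9 0.84 (0.39 to 1.33), while the chaperones Calr and Pdia3 had -0.37 (-0.52 to -0.22) and -0.46 (-0.69 to -0.22). In cytoplasm-rich rods the gene past 2-fold was Ern1, with 31 and 56 UMIs and a log2 ratio of 1.19 (0.53 to 1.87). Among genes with at least 100 UMIs there, Canx, Hyou1 and Atf6 had ratios of 0.30 to 0.51, and Dnajb11 and Pdia3 -0.41 and -0.13. Of 19 genes of the eIF2 machinery, 1 was 2-fold higher in nucleus-rich rods, the adaptor Nck1 at 1.02 (0.66 to 1.39), and none of 18 in cytoplasm-rich rods, where Nck1 had 0.73 (0.47 to 0.98). Eif2s3x, a subunit of eIF2, had -0.55 (-0.88 to -0.20) and -0.40 (-0.56 to -0.23). Among 9 genes around Sestrins and mTORC1, none was 2-fold higher in rods, and Rragd, a GTPase of the amino acid signal to mTORC1, was lower in nucleus-rich rods, at -1.04 (-1.55 to -0.50). The target list had 8 of 24 genes 2-fold higher in cone-like, 9 of 24 in RPE-like and 11 of 15 in Mueller-like droplets, and 2 lower, both in the RPE-like class. Over all tested genes of these classes 15.5%, 12.2% and 24.3% were higher and 3.07%, 5.64% and 11.9% lower.

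**Figure D4:**
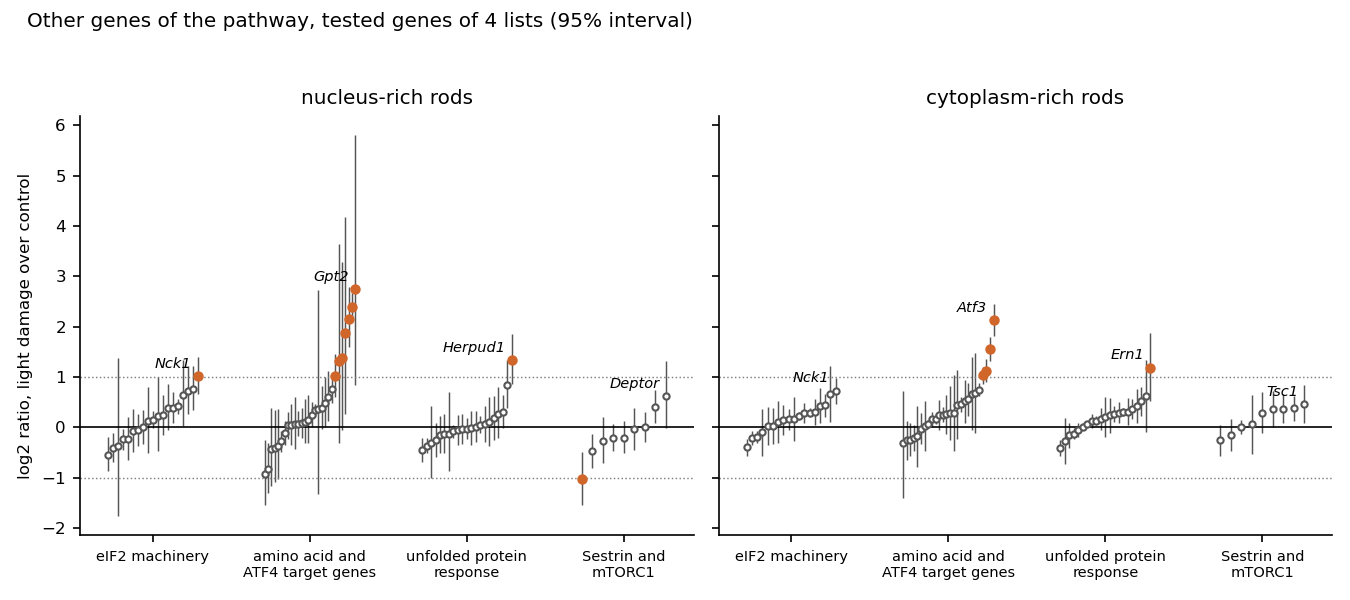
Log2 ratio, light damage over control, of the tested genes of 4 further lists in nucleus-rich (left) and cytoplasm-rich rods (right), sorted within a list, with 95% intervals. Filled points lie at or beyond 2-fold, the highest drawn gene of each list is named, and genes with 0 control UMIs are not drawn. Of the 8 target genes called on the left, all are filled points except Cebpb, which had 0 control and 35 light damage UMIs. The target list holds 4 filled points on the right.

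Across the 10 groups of 5 classes in both libraries, the genes whose log2(CPM + 1) ran most like Atf4, among 8045 genes, were Epc2, Gse1, a gene without a symbol in the table used (ENSMUSG00000061654), Zranb1 and Ddx5, with Pearson correlations from 0.96 to 0.95. For Ddit4 they were Prr3, Rock1, Fbxl20, Akirin1 and Atf7, from 0.91 to 0.88. None of them is a member or in the pathway lists. These are descriptions over 10 groups that share 2 libraries, and groups rich in nuclei share their RNA composition.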

How the data were processed

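Whole retinal cells were captured with 10x Genomics 3′ v3.1 chemistry. The authors deposited whole-number UMI counts per barcode and gene, spliced, unspliced and ambiguous apart, unfiltered and without normalization; the submitters' processing notes name Salmon 1.10.1, alevin 0.8.1, Cell Ranger 7.0.1 and mm10. The libraries held 30605284 (control) and 54413601 UMIs, 18.7% and 32.7% unspliced. Of 32285 genes, 32158 were named from GENCODE vM21.

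Barcodes above the inflection of the rank curve (1464 and 1614 UMIs) with at most 10% mitochondrial UMIs were kept. The automatic Scrublet threshold marked 3 and 1 droplets, so the highest-scoring 114 and 276 were left out instead, 0.8% per 1000 droplets. Leiden clusters (scanpy 1.11.5) were named from fixed markers, with 3 or more of them detected. For classes other than rods a mean log2 score of at least 1 was also needed. Clusters that met this for no other class were named rod if 3 or more rod markers were detected. The scores of the rod clusters were -0.82 to 0.71, so none reached 1. A droplet kept a name only if 3 of its own markers gave the same name. That last condition was set after seeing the data. UMIs were summed per class and library, which gives no test with 1 library per condition. CPM have exact Poisson intervals, log2 ratios exact conditional binomial intervals and differences of ratios intervals from the counts by normal approximation. A gene was tested with 30 UMIs and called at 2-fold. Free RNA was profiled in barcodes under 50 UMIs. Calculations were tested on simulated data. Depth sets the precision: 1 UMI was worth 0.0977 to 7.57 CPM. The members and lists were chosen with earlier results of these data known. Named list genes are up to 3 with the largest rise and 3 with the largest fall in each rod class by the interval end nearest 0, with at least 100 UMIs. Ern1 and, in a caption, Cebpb are named besides, as called genes. Promoters are from RefSeq.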

Additional observations from a re-analysis of the deposited data

Results flagged for a closer look

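Eif2ak4, the kinase that senses amino acid shortage, was at least 2-fold lower in RPE-like droplets while its ratio was above 0 in nucleus-rich rods. Its log2 ratio, light damage over control, was 0.91 in nucleus-rich rods, from 17 control and 222 light damage UMIs, and -1.21 in RPE-like droplets, from 17 and 25. The ratios differ by 2.12 (0.98 to 3.25) by counting error, and the difference between the conditions was not tested, with 1 library each. With unspliced UMIs included the ratio in nucleus-rich rods was 0.15. In RPE-like droplets the level was 24.6 CPM in control, 12.9 CPM in the light damage droplets of the cluster found in both libraries and 8.10 CPM in those of the light damage cluster.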

How the results depend on the processing

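The count of members at least 2-fold higher in light damage changed as follows. In nucleus-rich rods it was 3, and 1 for rods from 45% unspliced. In cytoplasm-rich rods it was 1, and 0 when droplets from 1000 UMIs were kept, when at most 5% mitochondrial UMIs were allowed, when doublets stayed in or relative to the median gene. In Mueller-like droplets it was 2, and 1 when droplets from 1000 UMIs were kept or with expected free RNA subtracted. The cause was not tested, and the shares over all genes under these other settings are not given here. The other 51 recomputed counts stayed within 1.5 times. Of single ratios 449 stayed within the interval of the reported value, 12 moved and 1 was counted as reversed. The latter, Ppp1r15a in cone-like droplets, was -0.68 when droplets were named by cluster alone, which adds the control droplet described under the other observations. Ddit4 in cone-like droplets also changed sign, to a negative ratio, when droplets over 20000 UMIs were left out, but is not counted as reversed. Naming by cluster alone and leaving out droplets over 20000 UMIs were chosen after seeing the data. No paired analysis was possible because each group holds 1 library, and no replicate could be left out for the same reason. Depth limits most the Mueller-like class, with 132067 spliced and ambiguous control UMIs.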

Other observations

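Nearly all Chac1 UMIs of the control library came from 1 droplet, which no named class holds. It had 54735 UMIs, of which 172 were Chac1, out of 175 over all kept control droplets, and 39 Ppp1r15a of 183, while it held 5 Atf4 UMIs and 0 of Ddit3, Ddit4, Trib3 and Asns. Its leading genes were Gsto1, Prss22, Pglyrp1 and Asprv1, with 186 UMIs of Krt13 and 212 of Muc4. It fell in the cone-like cluster but lacked enough cone markers. All kept light damage droplets together held 7 Chac1 UMIs.

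Some further values of the target list outside the rods follow, for genes chosen after their values were seen. In Mueller-like droplets Slc7a11, the cystine transporter, had 2 control and 542 light damage UMIs, a log2 ratio of 6.28 (4.42 to 9.33). Slc7a11 was among the leading genes of the Mueller cluster found after light damage alone, of 26 droplets with a median of 22229 UMIs. Its ratio therefore need not hold for the whole class. The transcription factor Cebpb had 8 and 226 UMIs in Mueller-like droplets, a ratio of 3.02 (2.02 to 4.25). In RPE-like droplets Cebpb had 28 and 640 UMIs, a ratio of 2.75 (2.20 to 3.35), and the transporter subunit Slc3a2 296 and 832 CPM, a ratio of 1.49 (1.28 to 1.70). In cone-like droplets Atf3 had 7 and 244 UMIs, a ratio of 3.97 (2.91 to 5.30). Slc7a5 was higher in RPE-like droplets, at 1.24 (0.94 to 1.57), and lower in nucleus-rich rods.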
